A study of Mus musculus with 2 samples.

Results

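A set of 4 genes of the GATA switch was followed in erythroid cells given siRNA against the corepressor ETO2: the transcription factors Gata1 and Gata2, the GATA cofactor Zfpm1 (FOG-1) and the receptor gene Kit. Every probe that the array files name for one of these genes was taken, whatever its value, which gave 5 of the 41174 probes on the array and 23 spots on each array. Gata1 and Kit each had 1 probe printed in 10 spots, Gata2 had 2 probes with 1 spot each, and Zfpm1 had 1 probe with 1 spot. No other probe mapped to these genes through its accession, symbol or synonym.

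The cells were G1E-ER-GATA-1, a mouse erythroid line labelled as GATA-1-null and as embryonic stem (ES) cells, whose introduced GATA-1, joined to the ligand-binding part of the oestrogen receptor, becomes active when β-estradiol is added. ETO2 siRNA cells had received siRNA against Cbfa2t3, the gene of ETO2, and control siRNA cells a control siRNA, and both were then held in β-estradiol for 24 h. Each of 2 arrays, labelled replicates 1 and 2, set Cy3-labelled RNA of ETO2 siRNA cells against Cy5-labelled RNA of control siRNA cells. Dyes were not swapped, so any dye effect of a probe would enter both ratios alike and could not be separated from the siRNA. Nothing says that the replicates came from separate cultures, so the p-values reflect no more than the spread of this pair of arrays, which may be technical. In the fit that spread is mostly one shared over all kept probes (1 residual and 14.43 prior degrees of freedom). The p-values and intervals therefore depend little on the SD of a single probe. All log2 ratios below are ETO2 siRNA over control siRNA after loess normalization within each array, and a negative value means a lower signal in ETO2 siRNA cells.

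As background, GATA-2 maintains blood stem and progenitor cells and mast cells, while GATA-1 directs red cell, megakaryocyte and mast cell maturation. When GATA-1 becomes active in an erythroid precursor it takes the place of GATA-2 at shared sites, including sites at the Gata2 gene itself, and Gata2 transcription falls; this exchange is called the GATA switch. FOG-1, the product of Zfpm1, binds GATA-1 directly, recruits the NuRD deacetylase complex, and is needed for GATA-1 to lower both Gata2 and Kit. Kit is the receptor tyrosine kinase for stem cell factor, which keeps early erythroid cells dividing, and its transcript is lost as they mature. ETO2 is a corepressor found with GATA-1, TAL1, LMO2 and LDB1 in erythroid cells. The comparison asks which of these transcripts changed when less ETO2 was present while the GATA-1 fusion was active.

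The measured probes are shown here by their first 30 of 60 bases, copied from the array files, because each value below rests on 1 such probe and the 2 Gata2 probes read different stretches of one transcript.
Gata1 (chromosome X), A_52_P670095: gcgtgatcgccccactcagttcttgaaggt
Gata2 (chromosome 6), A_51_P516625: ctagtacccgcataagagaagaatcggcag
Gata2 (chromosome 6), A_52_P233441: aactgcataagcttaacccgctgatgagtg
Zfpm1 (chromosome 8), A_51_P360840: tattactgctcttctcacgccgccgagcac
Kit (chromosome 5), A_51_P355906: tgtggtcatgtacgagactgtcaccagtta
The full probes held 38.3% and 40.0% G and C bases for Gata2, 45.0% for Kit, 53.3% for Gata1 and 60.0% for Zfpm1. No other probe of the array shared a run of 20 bases with any of them on either strand, and the longest run shared between member probes was 8 bases. A_52_P233441 is called the second Gata2 probe from here on.

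The arrays gave a median spot signal of 82.8 and 77.5 scanner units for ETO2 siRNA and of 105 for control siRNA on each array, over local backgrounds of 44 to 47. All 5 member probes were well above background in both channels on both arrays. The number of arrays, not counting error, limits the precision. Of the erythroid markers, all 8 on the array were well above background in both channels, among them Klf1, Epor and Slc4a1. Of 9 ES cell markers, 4 were above background everywhere (Esrrb, Tdgf1, Dppa5a and Utf1), at low mean log2 signals of 6.71 to 7.99. Nanog, Sox2, Zfp42 and Klf4 were above it in no channel of either array, and Pou5f1 did not pass the filter on dim probes. The ES cell wording of the labels was thus not borne out by Nanog and Sox2, and the list as a whole was mixed. The targeted transcript itself was only partly reduced. The Cbfa2t3 log2 ratio was -0.42 ± 0.048 (SD, n = 2 arrays), 74.6% of the control level (adjusted p = 0.0001). Its other probe read -0.23 ± 0.0046, or 85.6% of control (adjusted p = 0.0105). On the processed signals these probes read -0.37 (adjusted p = 0.0508) and -0.14 (adjusted p = 0.271), and neither passed the test.

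Gata2 was lower by both of its probes. Its probe A_51_P516625 had 1177.1 and 1191.0 scanner units in ETO2 siRNA cells on arrays 1 and 2, against 4202.3 and 4802.0 in control siRNA cells. The second Gata2 probe had 1059.4 and 1050.9 in ETO2 siRNA cells, against 3363.7 and 3555.9 in control siRNA cells. The ETO2 siRNA signals of both probes lay below both control signals. These are signals before the dyes were balanced, when every member probe was lower in Cy3. Loess added 0.82 and 0.97 to the log2 ratio of the first Gata2 probe on the 2 arrays, and nearly the same to the second.

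After normalization the Gata2 log2 ratio was -1.05 on array 1 and -1.09 on array 2, which gives -1.07 ± 0.025 (SD, n = 2; 95% confidence interval -1.20 to -0.93). Gata2 signal in ETO2 siRNA cells was thus 47.7% of that in control siRNA cells (limma adjusted p = 8.58e-09). The second probe read -0.89 and -0.85, or 54.7% of control (-0.87 ± 0.028, interval -1.01 to -0.74, adjusted p = 6.7e-08). Of the 24434 probes kept, 0.18% had a lower log2 ratio than the first probe and 0.352% a lower one than the second. Among the 1238 probes within 0.25 log2 units of its brightness, whose median was -0.002, 0.404% lay lower than the first probe.

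The 2 Gata2 probes differed from each other by 0.16 and 0.24 log2 units, more than the SD of 0.053 of that difference between arrays. The first probe lay in row 29 of the array and the second in row 130, and the ratios of all probes varied with the row, as described for Gata1 below. With that trend removed the probes read -0.88 and -0.78, and with the scanner software's processed signals -0.86 and -0.76. Both probes passed the test in each of these settings.

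**Figure D1:**
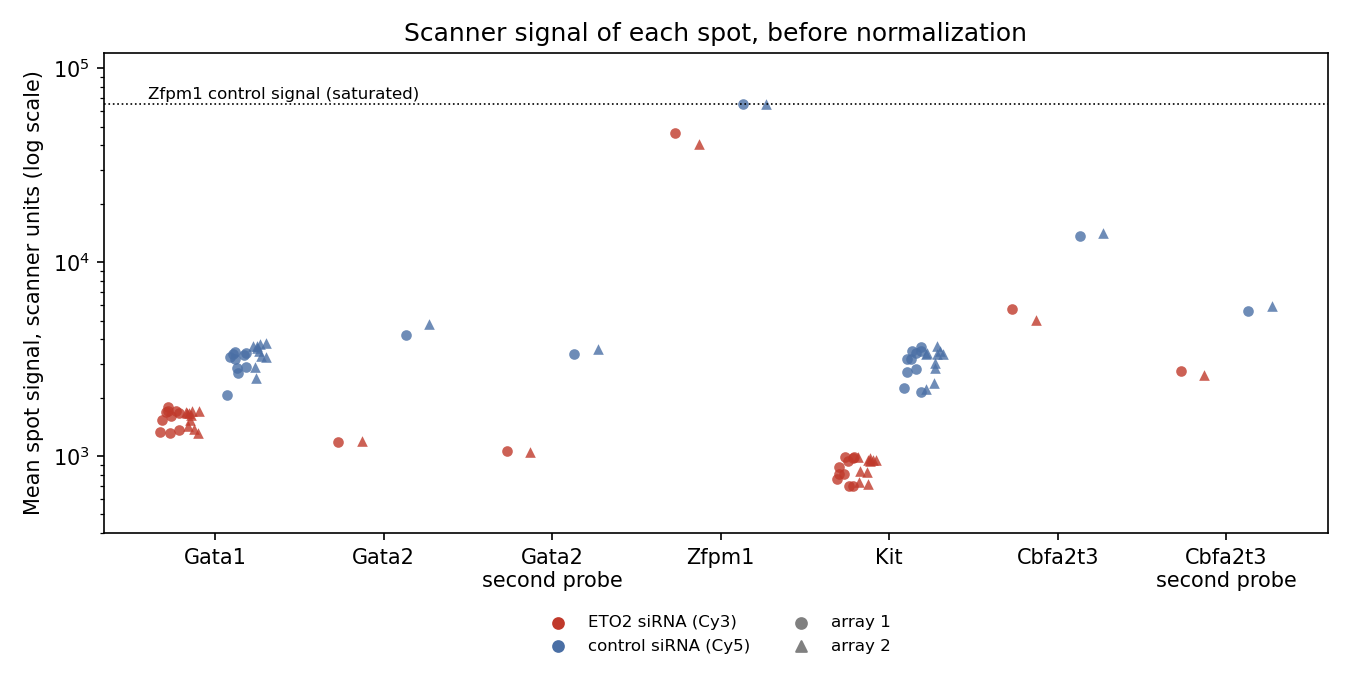
Mean spot signal before normalization, in scanner units on a log axis, for each probe of Gata1, Gata2, Zfpm1, Kit and Cbfa2t3; ETO2 siRNA (Cy3, red) stands left of control siRNA (Cy5, blue), circles are array 1, triangles array 2, and each point is 1 spot. The Gata2 spots lie between 1050.9 and 1191.0 in ETO2 siRNA and at 3363.7 or above in control siRNA, and the Zfpm1 control spots sit at the scanner limit of 65221 on both arrays. The dyes are not yet balanced here and every probe shown is lower in Cy3, so only the relative size of the gaps can be compared. The Zfpm1 gap cannot be compared, as its control spots are saturated.

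Kit, the stem cell factor receptor, fell by about as much as Gata2. Over its 10 spots the ETO2 siRNA signal ran from 698.09 to 992.78 scanner units on array 1 (mean 855.85) and from 716.16 to 982.26 on array 2 (mean 888.6). In control siRNA cells it ran from 2129.9 to 3661.1 (mean 3025.9) and from 2213.2 to 3703.6 (mean 3111.6). Before the dyes were balanced, the highest ETO2 siRNA spot was thus below the lowest control spot on each array. The same held for Gata1, and every member probe was lower in Cy3 at that stage, so this gap alone does not single out Kit.

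The normalized Kit log2 ratio was -1.05 on array 1 and -0.90 on array 2 (-0.98 ± 0.10, interval -1.12 to -0.83, n = 2), or 50.9% of the control level (adjusted p = 3.07e-08). All 10 spots were below 0 on each array, from -1.25 to -0.81 on array 1 and from -1.11 to -0.64 on array 2. The spots share one RNA sample per array and are not replicates of the treatment. Of the kept probes, 0.237% had a lower log2 ratio, and among 1227 probes of like brightness 0.244% did.

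Gata2 and Kit could not be put in order. The Gata2 ratio minus the Kit ratio was 0.00 on array 1 and -0.18 on array 2, a mean of -0.09 with an SD of 0.13, so the difference was smaller than its spread. In the processed signals Kit was the lower of the pair, at -1.0 against -0.86, and likewise with the row trend removed, at -0.96 against -0.88.

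Gata1 changed far less, and its small decrease depended on the processing. Its 10 spots gave 1318.4 to 1788.2 scanner units in ETO2 siRNA cells on array 1 (mean 1572.9) and 1320.2 to 1704.7 on array 2 (mean 1572.2). In control siRNA cells they gave 2070.1 to 3426.1 (mean 3042.6) and 2525.9 to 3812.1 (mean 3398.0). The groups did not overlap on either array before the dyes were balanced, but every member probe was lower in Cy3 at that stage. This gap alone does not single out Gata1, and loess added 0.80 and 0.94 to its log2 ratio on the 2 arrays. Afterwards the log2 ratio was -0.17 on array 1 and -0.19 on array 2 (-0.18 ± 0.014, interval -0.31 to -0.04, n = 2), or 88.4% of control, with an adjusted p of 0.0364. That small a ratio was common: 19.8% of all kept probes and 24.6% of the 1225 probes of like brightness were lower still. The labels do not say which part of Gata1 the null allele lacks or whether the probe reads the introduced fusion, so this value is that of whatever Gata1 sequence the cells transcribe.

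The 10 Gata1 spots were not of one sign. On each array 8 spots were below 0, and those in rows 434 and 487 read 0.05 and 0.13 on array 1 and 0.12 and 0.09 on array 2. The lowest spot, at -0.34 and -0.38, was in row 18. The SD among spots was 0.15 and 0.17, against 0.014 between the array means. The Kit spots shifted along the array in the same manner, from -1.25 and -1.10 in row 32 to -0.86 and -0.71 in row 531. The trend was not particular to these genes. Medians were taken in 4 successive bands of rows, over the spots well above background in both channels of an array. They were -0.147, -0.046, 0.036 and 0.12 on array 1 and -0.153, -0.042, 0.029 and 0.119 on array 2. In the scanner software's processed signals these medians stayed between -0.013 and 0.026.

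A fit with the row trend removed from each array, added after the trend was seen, gave Gata1 -0.13 with an adjusted p of 0.134, so the call was lost. In the processed signals Gata1 read -0.11 (adjusted p = 0.389), in the authors' deposited ratios -0.11 (adjusted p = 0.387), and with no background offset -0.17 (adjusted p = 0.131). Over the alternatives the adjusted p of Gata1 ran from 9.6e-16 with median centring to 0.389. Median centring left probes of like brightness at a median of -0.47, and Gata1 stood at -0.18 against them. The low p against 0 in that setting is therefore not particular to Gata1. Gata2 minus Gata1 was -0.88 and -0.90 on the 2 arrays and Kit minus Gata1 was -0.88 and -0.71, and the intervals of Gata2 and Kit did not reach that of Gata1. An exact sign permutation test over 2 arrays has 0.5 as its lowest two-sided p, and none of these differences could pass it.

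**Figure D2:**
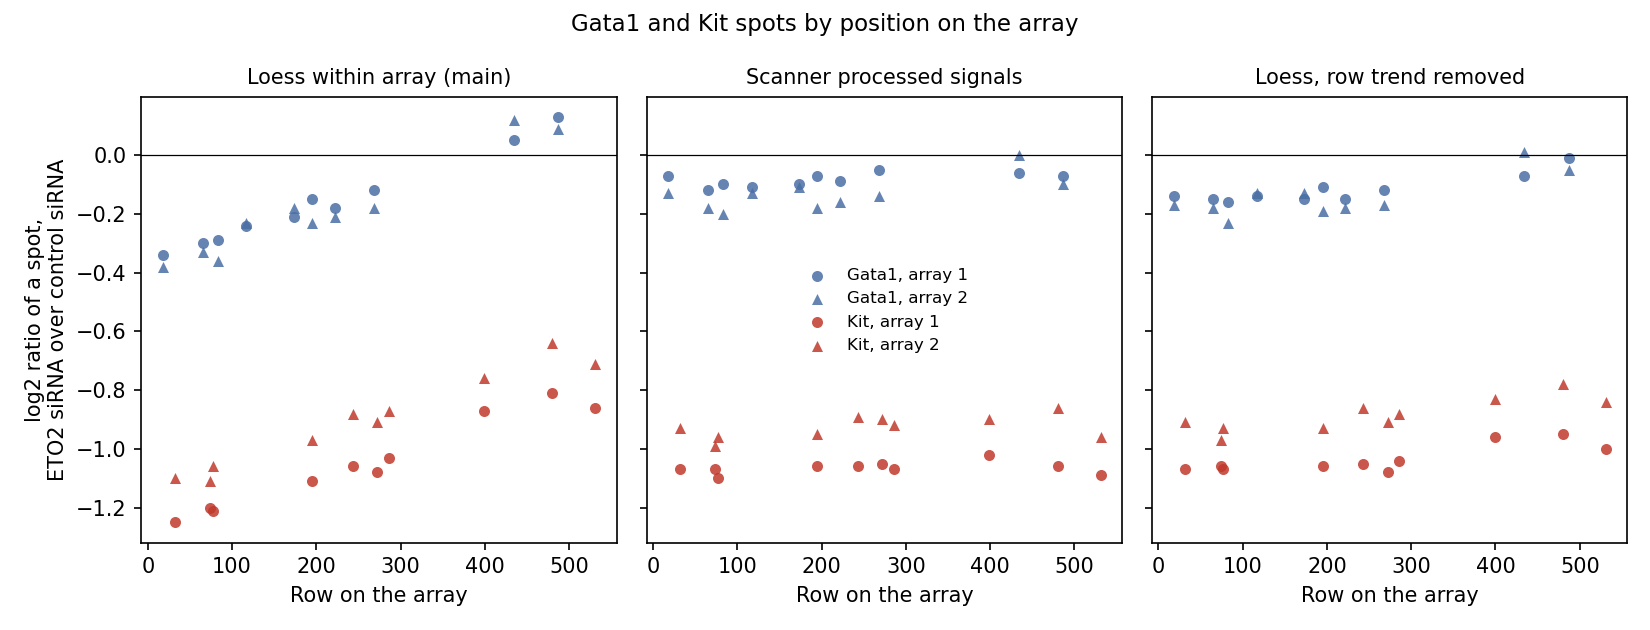
Log2 ratio (ETO2 siRNA over control siRNA) of each Gata1 spot (blue) and Kit spot (red) against its row on the array, for array 1 (circles) and array 2 (triangles), under 3 ways of processing. With loess alone the ratio climbs with the row and 2 Gata1 spots on each array pass above 0; in the processed signals and with the row trend removed the Gata1 spots lie between -0.23 and 0.01, and the Kit spots stay at -0.64 or below in all 3 panels.

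Zfpm1, which encodes FOG-1, was too bright for a fold change. Its single spot had 46547 and 40557 scanner units in ETO2 siRNA cells, against 65221 on both arrays in control siRNA cells, and the control spot was flagged as saturated both times. The ETO2 siRNA spot was not saturated on either array. The control signal is therefore only a lower bound. The normalized log2 ratio was 0.44 and 0.46, whereas median centring gave -0.21, and the sign therefore rests on the scaling. Among the 342 probes of like brightness the median normalized ratio was 0.411, and 53.8% lay below Zfpm1. No fold and no direction is given for Zfpm1.

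Of the 5 member probes, 4 were thus lower at an adjusted p under 0.05 (both Gata2 probes, Kit and Gata1), beside 20.7% of all kept probes. Both Gata2 probes and Kit were also at least 1.5-fold lower, which held for 1.56% of the kept probes. In either direction 39.4% of the kept probes passed the test, so passing it is a weak statement on its own, and the size of the ratio says more.

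**Figure D3:**
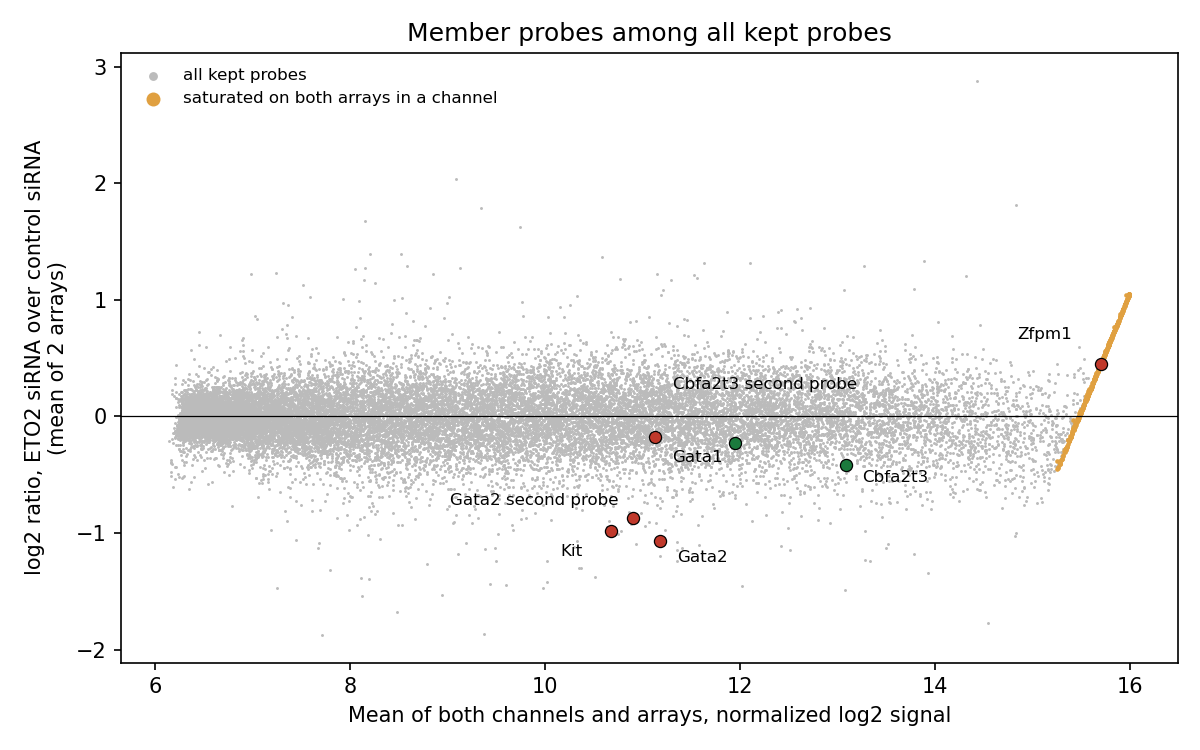
Mean log2 ratio over the 2 arrays against mean normalized log2 signal for the 24434 kept probes (grey), with the member probes in red, the 2 Cbfa2t3 probes in green and probes saturated on both arrays in a channel in orange. Both Gata2 probes and Kit lie at -0.87 or below, under the bulk of probes of their brightness, Gata1 lies within the bulk at -0.18, and Zfpm1 lies on the line that saturated control signals form.

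The order of the members and their calls were followed over the processing settings. The Gata2 probe A_51_P516625 ranged from -0.86 to -1.54 and Kit from -0.90 to -1.42, and both passed the test under every setting with 2 arrays that was tried. The lowest values came with median centring, which left the median of all kept probes at -0.29. Against probes of like brightness in that setting, Gata2 stood at -1.07, Kit at -0.97 and Gata1 at -0.18.

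**Figure D4:**
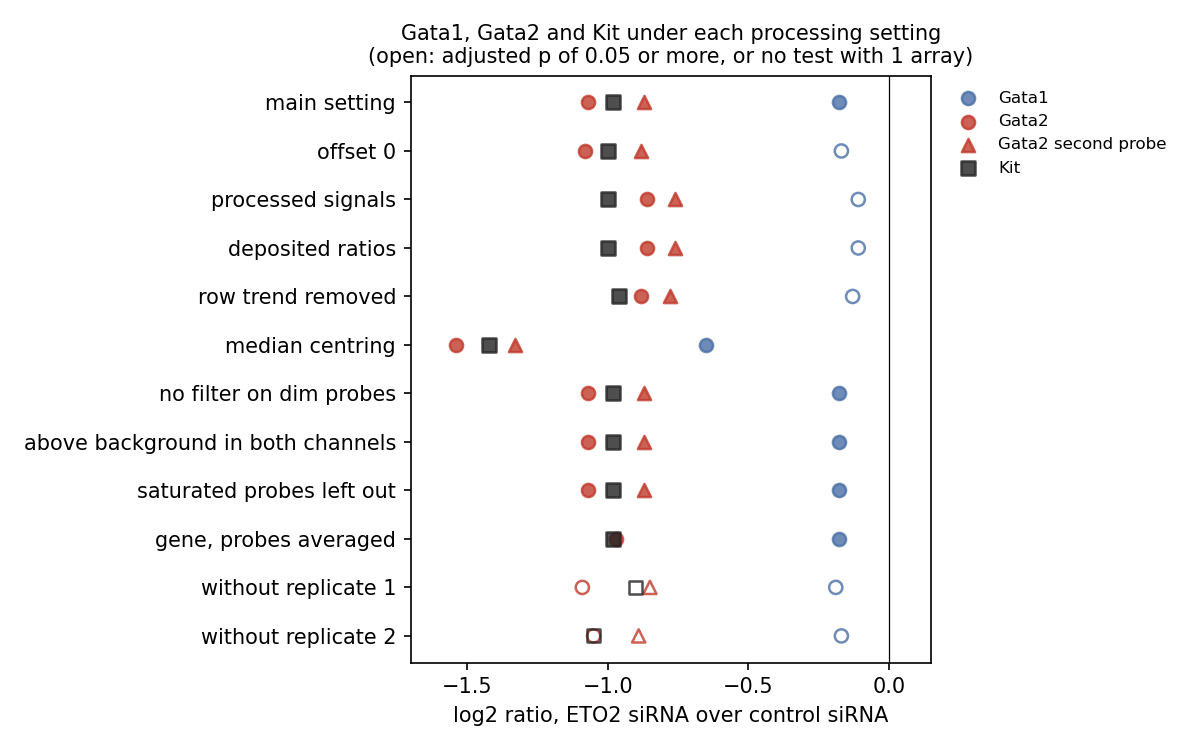
Log2 ratio (ETO2 siRNA over control siRNA) of Gata1, both Gata2 probes and Kit under each processing setting; filled symbols passed the test at an adjusted p under 0.05 and open symbols did not, or had 1 array and no test. Gata2 and Kit are at -0.76 or below throughout, and Gata1 is open in the settings that read -0.17 with no offset, -0.11 on processed and deposited values and -0.13 without the row trend.

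Among the other GATA and FOG genes, Gata3 was lower and the rest gave no call. Gata3, a factor of T lymphocytes, read -0.37 and -0.49 (-0.43 ± 0.088, adjusted p = 0.000102) at a low signal. Gata4 read -0.11 (adjusted p = 0.186) and Gata5 -0.05 (adjusted p = 0.593); both act outside blood. On the processed signals Gata5, not clearly above background in Cy3, read -0.47 and passed the test (adjusted p = 0.0354). Gata6 and Zfpm2 (FOG-2) were not well above background. With the members included, 3 of the 6 measured genes of these families were lower, namely Gata1, Gata2 and Gata3. Of the 16587 genes and transcripts measured by their brightest probe, 21.9% were lower. Zfpm1 is 1 of the 6 but is not counted in either direction here. On the processed signals 3 were again lower, with Gata5 in place of Gata1. With the row trend removed 2 were lower, where 3492 of the 24434 kept probes were.

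Genes of proteins that work with GATA-1 were split. Of 23 measured partners and cofactors, 6 were higher and 6 lower, and the median was -0.03, beside 18.1% higher and 21.9% lower over all genes and a median of -0.018. Lmo4, a LIM-domain relative of Lmo2, read -0.71 ± 0.15 (adjusted p = 1.36e-06), and its other probe -0.33. Rcor1 (CoREST), the scaffold of a demethylase complex, read -0.35 ± 0.047 (adjusted p = 0.000449), with its other probes at -0.08 and -0.25. Tal1, the E-box-binding partner of GATA-1, read 0.40 ± 0.019 (adjusted p = 0.000148) but -0.20 with median centring. On the processed signals Tal1 read 0.28 (adjusted p = 0.0794) and Rcor1 -0.31 (adjusted p = 0.0674), and neither passed. Gfi1b, a repressor counted among the 6 lower genes, was saturated in the control channel, and without it 5 were lower. These 5 include Cbfa2t3, the target of the siRNA itself. On the processed signals this list held 0 higher and 1 lower gene, against 1411 higher and 1349 lower of the 24434 kept probes.

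The corepressors that FOG-1 binds, NuRD and CtBP, were also split. Of 15 measured genes, 4 were higher and 3 lower, with a median of 0.01, beside 18.1% higher and 21.9% lower over all genes. Chd3, a helicase subunit of NuRD, had the greatest decrease, at -0.83 and -1.04 (-0.93 ± 0.15, adjusted p = 7.24e-08), but its 3 other probes read -0.35, -0.36 and -0.11. Mbd2, which links NuRD to methylated DNA, read -0.44 ± 0.023, and its other probe -0.16, which did not pass the test. The deacetylase gene Hdac2 read 0.42 ± 0.11 and Mbd3 0.30 ± 0.076, although Mbd3 turned to -0.13 with median centring. On the processed signals Chd3 kept its call at -0.92, while Mbd2 (-0.15), Hdac2 (0.30) and Mbd3 (0.12) lost theirs. In that setting 0 genes were higher and 1 lower, beside 1411 higher and 1349 lower of the 24434 kept probes.

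Several genes of Kit signalling were lower. Of 34 measured genes, 12 were lower and 4 higher, with a median of -0.08, beside 21.9% lower and 18.1% higher over all genes. On the processed signals 7 were lower and 0 higher, where 1349 of the 24434 kept probes were lower and 1411 higher. Socs1, a feedback inhibitor of cytokine receptors that also binds Kit, read -1.75 and -1.97 (-1.86 ± 0.16, adjusted p = 9.01e-11). Dok2, an adaptor that restrains Ras signalling, read -1.03 and -0.99 (-1.01 ± 0.025, adjusted p = 1.74e-08). Grb2, the adaptor that couples Kit to Ras, read -0.74 ± 0.15, with its other probe at -0.70. Pik3cd, a catalytic subunit of phosphoinositide 3-kinase, read -0.57 ± 0.13, but its other probe read 0.08. These 4 genes also passed on the processed signals, where Grb2 read -0.44 and Pik3cd -0.50.

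The ligand gene Kitl and the adaptor gene Gab2 were not well above background. The other receptors of the Kit family gave no call. Flt3 read -0.03 (adjusted p = 0.713), the macrophage receptor gene Csf1r -0.01 (adjusted p = 0.914), and Kdr, a relative that lies beside Kit, 0.01 (adjusted p = 0.914); Kdr was not clearly above background in Cy3. Pdgfra and Pdgfrb were not well above background.

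Targets lowered by GATA-1 or supported by GATA-2 were split. Of 15 measured, 6 were lower and 5 higher, with a median of -0.02, where 21.9% of all genes were lower and 18.1% higher. Hdc, the enzyme of histamine synthesis in mast cells and basophils, read -1.47 and -1.30 (-1.38 ± 0.11, adjusted p = 1.29e-09). The cell cycle gene Ccnd2 read -0.80 ± 0.066, with its other probes at -1.13 and -1.18, and Rgs18, a regulator of G protein signalling, read -0.73 ± 0.14, with its other probe at -0.57. Il1rl1, the interleukin-33 receptor of mast cells, read 0.44 ± 0.0047, with its other probe at 0.22. With median centring Il1rl1 read 0.16 and did not pass the test (adjusted p = 0.0634). On the processed signals 5 genes of this list were lower and 1 higher, beside 1349 lower and 1411 higher of the 24434 kept probes.

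Genes that GATA-1 raises in red cell precursors were mostly higher. Of 19 measured, 16 were higher and 3 lower, with a median of 0.51, against 18.1% higher and 21.9% lower among all genes; 4 of the 19 were saturated in the control channel, and without them 13 were higher and 2 lower. Slc4a1, the band 3 anion exchanger, read 2.88 ± 0.068. Slc25a37, the mitochondrial iron importer, read 1.81 ± 0.013, but its other probe read 0.94. Epb42 of the membrane skeleton read 1.39 ± 0.29, with its other probe at 1.68. The erythroid nuclear protein gene Hemgn read 1.10 ± 0.072, but its other probes read 0.43 and 0.74. The counts were 12 higher and 1 lower on the processed signals, where 1411 of the 24434 kept probes were higher and 1349 lower. Median centring gave 9 higher and 8 lower, where 759 of the kept probes were higher and 15565 lower. This list and the others were chosen with earlier results of these data known, and their counts are descriptions.

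**Figure D5:**
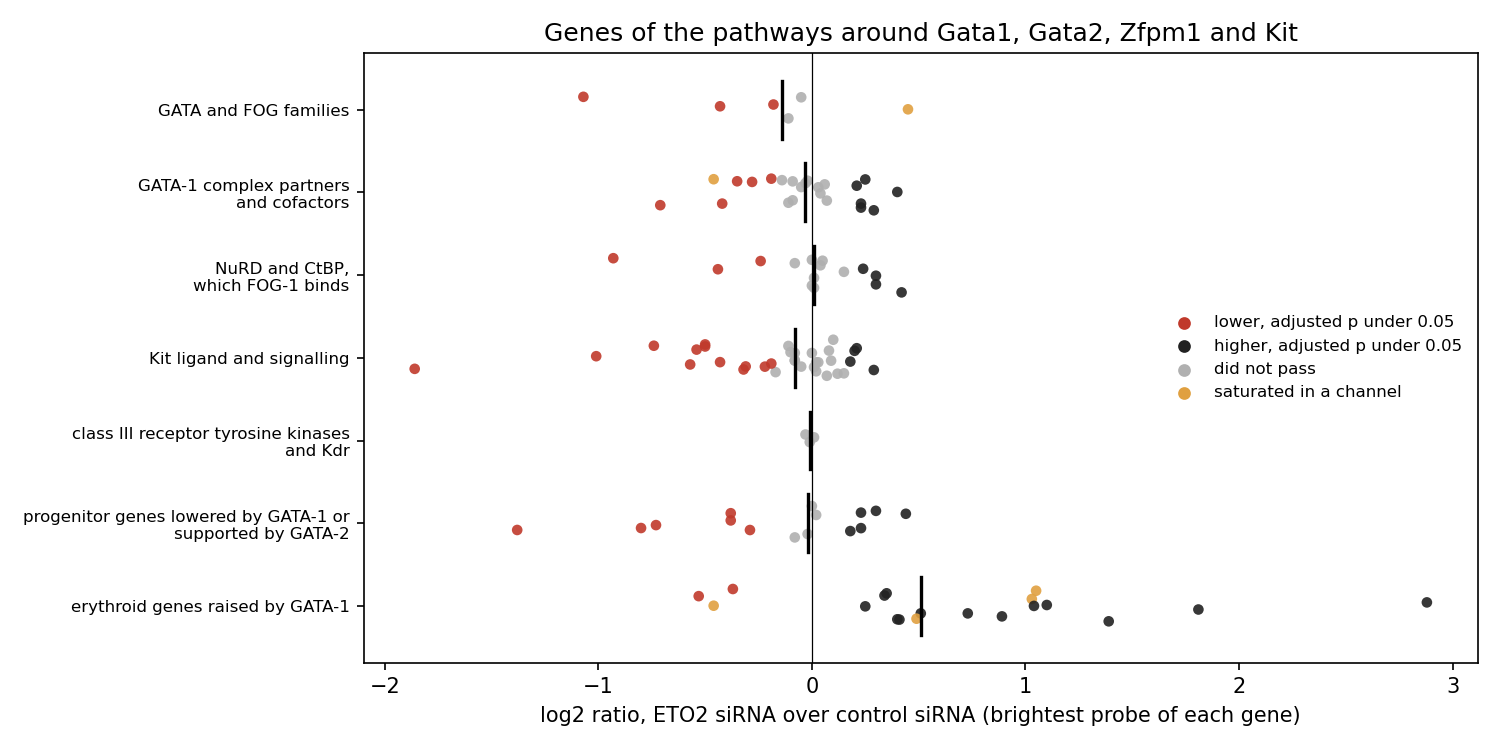
Log2 ratio (ETO2 siRNA over control siRNA) of each measured gene of 7 lists, by its brightest probe; red genes are lower and black genes higher at an adjusted p under 0.05, grey genes did not pass, orange genes were saturated in a channel, and the bar is the median of the list. Vertical scatter within a list has no meaning. The medians lie between -0.14 and 0.01 in 6 lists and at 0.51 for the erythroid genes that GATA-1 raises; with median centring higher genes such as Tal1 (-0.20) and Mbd3 (-0.13) turn negative.

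Markers of other cell types were read beside Gata2 and Kit, because mast cells carry both. The mast cell list was summed over processed signals, whose dyes the scanner software had balanced, without the loess used here. The sum was 36410 and 39580 in ETO2 siRNA cells on the 2 arrays, against 59860 and 65510 in control siRNA cells. Srgn (serglycin), a granule proteoglycan also made by other blood cells, carried most of that sum and read -1.0. Without Srgn, left out after its values were seen, the sums were 1182 and 1369 in ETO2 siRNA cells, against 1389 and 1484 in control siRNA cells. Of its 13 genes, 7 were above background everywhere, while the mast cell genes Ms4a2, Tpsab1, Tpsb2 and Mcpt8 were above it in no channel. Of its 9 measured genes 4 were higher and 2 lower, with a median of 0.00, where 18.1% of all genes were higher and 21.9% lower. The higher were Il1rl1 (0.44) and the mast cell protease genes Mcpt1 (0.66), Mcpt2 (0.57) and Mcpt4 (0.49), and the lower were Hdc (-1.38) and Srgn. These protease genes were at low signal, with mean log2 levels of 6.88, 6.37 and 6.75. Mcpt2 was not well above background in Cy5 on either array, and the other Mcpt4 probe read 0.01. The megakaryocyte list summed to 41830 and 48630 in ETO2 siRNA cells, against 38790 and 46280 in control siRNA cells, with 9 of 11 genes above background everywhere and Ppbp in no channel. Without Itgb3 (-0.63), left out in the same way as Srgn, its sums were 28040 and 33760, against 20400 and 25180 in control siRNA cells. Of the 10 measured megakaryocyte genes 3 were higher and 2 lower, where 18.1% of all genes were higher and 21.9% lower. Granulocyte and macrophage genes summed to 600.7 and 713.3, against 1092 and 1167 in control siRNA cells, and Elane, Lyz2 and Itgam were above background in no channel. Without Fcgr3 (-0.93), left out in the same way as Srgn, the sums were 318.9 and 329.4, against 342.3 and 382.6 in control siRNA cells. Of the 5 measured genes of this list 0 were higher and 2 lower, where 18.1% of all genes were higher and 21.9% lower.

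The erythroid markers summed to 521600 and 608500 in ETO2 siRNA cells, against 251800 and 256600 in control siRNA cells, but these sums hold 2 globin genes, Hbb-bt and Hba-a1, at the scanner's limit in Cy3 and Cy5 on each array. Without the pair, likewise left out after the values were seen, the sums were 223100 and 249600 in ETO2 siRNA cells, against 116700 and 125700 in control siRNA cells. All 8 were higher in the main setting (6 of 6 without the globins), where 18.1% of all genes were. The processed signals gave 6 higher and 0 lower, where 1411 of the 24434 kept probes were higher and 1349 lower. With median centring 5 were higher and 2 lower, where 759 of the kept probes were higher and 15565 lower. In bulk RNA, fewer cells of a type and less RNA per cell cannot be told apart, and the part of any cell type in the Gata2 and Kit values was not tested.

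The genes beside the members on their chromosomes, taken by order in the RefSeq gene table (GRCm38.p6), included none with a ratio as low as that of Gata2 or Kit. Beside Gata2, Rab7 read -0.29 (adjusted p = 0.00292) by its brightest probe and 0.07 by the other, Rpn1 -0.16, Dnajb8 0.14 and Eefsec -0.07, and the last 3 did not pass the test by these probes. The other Rpn1 probes read -0.17 (adjusted p = 0.0431) and -0.13 (adjusted p = 0.14), and Dnajb8 read 0.25 with the row trend removed (adjusted p = 0.0144). Beside Kit, Kdr read 0.01 and Srd5a3 0.02, and Pdgfra and Gsx2 were not well above background. Beside Gata1, Hdac6 read 0.29 and Suv39h1 0.37, though both turned negative with median centring (-0.03 and -0.08), Glod5 read -0.20, and Eras was not well above background. Beside Zfpm1, Banp read 0.21 (-0.31 with median centring), Zfp469 0.01 and Trhr2 -0.05. Rab7, Hdac6, Suv39h1 and Banp passed no test on the processed signals, and Glod5 lost its call with the row trend removed. Cbfa2t3, the siRNA target, lies on chromosome 8 too, with 15 coding genes between it and Zfpm1.

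For each measured member, the 3 genes nearest to it over the log2 ratios of the 2 arrays, at a brightness within 1 log2 unit, were taken. Gata2 was closest to Arap3, at a distance of 0.013, and then to Socs2 (0.037) and Tec (0.061), out of 2995 candidates. These genes encode a GTPase-activating protein, a cytokine signalling inhibitor and a tyrosine kinase. Kit was closest to Cd274, Septin9 and Coro2a, at distances of 0.05, 0.07 and 0.12 among 2896 candidates. Cd274 encodes the immune ligand PD-L1, and Septin9 and Coro2a encode cytoskeletal proteins. Gata1 had Mphosph10, Taf5 and Zfp422-ps within 0.0059 among 2983 candidates, as many genes shared its small ratio. With 2 arrays this measure says only that the ratios were alike in size.

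Promoter windows are given for Gata2 and Kit because these genes fell by similar amounts. Each window holds the 250 bases before a RefSeq start site on the plus strand (GRCm38.p6), and the 2 Gata2 windows precede its 2 annotated start sites. GATA motifs (GATAA or GATAG after an A or a T) and E-box letters (CANNTG) were searched on both strands, with capitals kept for matches.
Gata2, distal start, chr6:88193641-88193890: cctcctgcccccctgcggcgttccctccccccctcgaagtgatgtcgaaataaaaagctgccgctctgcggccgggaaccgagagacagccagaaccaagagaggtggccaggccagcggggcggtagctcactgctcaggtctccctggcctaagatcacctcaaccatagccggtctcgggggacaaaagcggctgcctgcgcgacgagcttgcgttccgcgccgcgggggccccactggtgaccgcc
Gata2, proximal start, chr6:88198414-88198663: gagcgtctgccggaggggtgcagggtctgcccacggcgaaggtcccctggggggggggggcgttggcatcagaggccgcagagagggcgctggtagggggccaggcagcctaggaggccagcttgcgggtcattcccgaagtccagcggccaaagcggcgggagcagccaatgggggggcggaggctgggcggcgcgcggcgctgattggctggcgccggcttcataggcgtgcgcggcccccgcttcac
Kit, chr5:75574737-75574986: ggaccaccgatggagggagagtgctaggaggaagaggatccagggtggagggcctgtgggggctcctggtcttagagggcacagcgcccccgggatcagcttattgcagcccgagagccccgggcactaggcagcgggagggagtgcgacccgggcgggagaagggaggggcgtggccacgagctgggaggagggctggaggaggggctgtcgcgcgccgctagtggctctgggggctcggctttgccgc
No capitals appear, as none of these windows held either motif, and neither did the window of Zfpm1. The Gata1 window held no GATA motif and 1 E-box, CATATG, 198 bases before the start. Of all 32851 windows of this length, 26.5% held GATA motif and 66.2% an E-box, a wider pattern; no match is both, though adjacent matches can share bases. The G and C content was 67.2% and 74.0% in the Gata2 windows and 70.8% in that of Kit. An absent match says only that these letters are not in these 250 bases.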

How the data were processed

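Arrays were read with Agilent Feature Extraction (version 9.1.3.1, per the file headers). Its deposited mean signal and local background intensity are on a linear scale before any normalization. Per the file headers, the same software subtracted background and balanced the dyes to give a processed intensity, and its log10 ratio is red over green. The authors' deposited log10 ratio table differed from it by at most 0.00412, has a median of 0 on each array, and was turned to green over red and to log2 here.

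Mean signals were background-corrected (normexp, offset 50, limma 3.58.1, R 4.3.3) and normalized by loess within each array, with control spots at weight 0. Spots flagged as outliers (10 and 4) were left out and spots of a probe averaged. Of 41174 probes, 24434 were kept: well above background in 1 channel on both arrays, in at least 0.5 of a probe's spots. Ratios were tested against 0 with lmFit and eBayes (1 residual and 14.43 prior degrees of freedom), two-sided, Benjamini-Hochberg over all kept probes, threshold 0.05. Across the kept probes 11635 had an unadjusted p under 0.05. Steps were tested on simulated arrays. Both arrays lay on 1 slide. RNA input was 1.2 µg per dye.

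A gene stands for its brightest kept probe in lists. Probe names were updated with the GRCm38.p6 RefSeq table (24367 by accession, 6307 by symbol, 2425 by synonym, 8075 kept). No genome build is named for the array. Promoter sequences are from RefSeq (GRCm38.p6) for all 4 genes.

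The members, lists and settings were chosen with earlier results of these data known. Named genes are all member and Cbfa2t3 probes, per list up to 4 unsaturated genes past the threshold with the largest ratio (all in lists of 5 or fewer, and all of the GATA and FOG families), 3 nearest genes per member, and 2 coding neighbours each side. Alternatives were offset 0, processed signals, deposited ratios, median centring, other filters on dim or saturated probes, genes in place of probes, each array alone, and removal of the row trend.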

Additional observations from a re-analysis of the deposited data

How the results depend on the processing

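Gata2 (both probes) and Kit kept their direction and passed the test under each alternative with 2 arrays. Gata1 did not: it read -0.17 with offset 0 (adjusted p = 0.131), -0.11 on processed signals and on deposited ratios, and -0.13 with the row trend removed, none of which passed. Cbfa2t3 read -0.37 on processed signals (adjusted p = 0.0508) and -0.37 on deposited ratios (adjusted p = 0.0524), just missing the threshold of 0.05, and its other probe lost its call there and with offset 0. Of the 24434 kept probes, 4580 were higher and 5048 lower in the main setting. These counts were 1411 and 1349 on processed signals, 1329 and 1257 on deposited ratios and 3415 and 3492 with the row trend removed. They were 759 and 15565 with median centring, which moved the median of all probes to -0.29. With median centring the ratios of Zfpm1 (-0.21), Tal1 (-0.20), Banp (-0.31), Hdac6 (-0.03), Mbd3 (-0.13) and Suv39h1 (-0.08) turned negative, as did Srd5a3 (-0.45), Dnajb8 (-0.20) and Zfp469 (-0.08), while Gata5 (0.05) and Trhr2 (0.03) turned positive; these last 5 had not passed in the main setting. Genes higher and lower were 6 and 6 among GATA-1 partners, 4 and 3 for NuRD and CtBP, 4 and 12 for Kit signalling and 5 and 6 for progenitor genes. In the same order they were 0 and 1, 0 and 1, 0 and 7, and 1 and 5 on processed signals, 3 and 5, 3 and 2, 1 and 11, and 3 and 5 with the row trend removed, and 0 and 22, 0 and 13, 0 and 30, and 0 and 11 with median centring. With 1 array left out, Gata1 ranged from -0.19 to -0.17, Gata2 from -1.09 to -1.05, Kit from -1.05 to -0.90 and Cbfa2t3 from -0.46 to -0.39; these are values with no test. Why the processed signals give fewer calls was not tested. Each ratio pairs both groups within its array, so there was no further block to fit. Brightness limits Zfpm1, whose control signal was saturated.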
